A study of Mus musculus with 15 samples.

Results

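MAdCAM-1-high pixels are the spots of 4 embryo sections (mouse, embryonic day 10, E10) at which an antibody against MAdCAM-1 made up the largest share of the antibody counts. They were chosen by that measured share: in each section the tissue pixels were ranked by MAdCAM-1 per 10000 antibody counts, and the top 10% were taken as members. A pixel counted as tissue when its transcript total reached 0.1 of the 95th percentile of its section. This gave 575 of 5735 tissue pixels. The members were 86 of 859 pixels in 50 µm section A, 84 of 839 in 50 µm section B, 177 of 1766 in the 25 µm section and 228 of 2271 in the 10 µm section.

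The sections were cut from frozen, freshly dissected embryos and measured by deterministic barcoding in tissue. In that method a grid of microfluidic channels writes a barcode pair into every crossing, and each crossing is a pixel from which transcripts and the DNA tags of 22 antibodies are counted together. A pixel can hold several cells or part of one. The labels give stage and pixel width but no strain, sex, embryo number or body region, and no section was treated, so the comparisons are between pixels of the same section.

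MAdCAM-1 is a cell adhesion molecule of the immunoglobulin superfamily. In the adult it is best known as an addressin on high endothelial venules of the gut and its lymphoid tissue, where it binds the integrin α4β7 on lymphocytes. Its gene is Madcam1. The genes of this axis described here are Madcam1, the integrin chains Itga4, Itgb7 and Itgb1, the transcription factor genes Nkx2-3 and Nr2f2, and the lymphotoxin receptor gene Ltbr.

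Transcript counts in tissue pixels summed to 11348089 and 10634734 in 50 µm sections A and B, 1563489 in the 25 µm section and 5299196 in the 10 µm section. Antibody counts summed to 2774306, 4823543, 2639394 and 1771811 in the same order. The 25 µm section was the shallowest in transcripts, with a median of 843.5 counts per tissue pixel against 11332 and 10659 at 50 µm and 2096 at 10 µm. Levels below are in CPM, the counts of a gene per 1e6 transcript counts over a set of pixels.

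The shares that chose the members are given as a description. The median MAdCAM-1 share in 50 µm section A was 146 per 10000 antibody counts in members and 76.3 in the other pixels. For 50 µm section B the medians were 348 and 196, and in the 10 µm section 211 and 104. The 25 µm section had the widest separation, with 1085 against 297. The lowest member and the highest non-member lay close together in every section, at 122.2 and 122.0, 308.7 and 305.5, 878.4 and 876.9, and 180.3 and 180.3 per 10000, so that membership is a range of a continuous share and not a separate class. The share rested on few counts in some sections. A member held a median of 22.5 MAdCAM-1 counts in 50 µm section A and of 12 in the 10 µm section, where the 95% Poisson interval of that count ran from 6.20 to 21.0 and the other pixels had a median of 7. The medians were 149.5 in 50 µm section B and 153 in the 25 µm section.

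Members lay differently on the 4 grids. In the 25 µm section 71.2% of the tissue neighbours of a member (the up to 4 pixels that share a side) were members too, and 147 of its 177 members formed 1 connected patch. The corresponding share of neighbours was 38.5% in 50 µm section A, 49.2% in section B and 16.4% in the 10 µm section, where 129 of 228 members touched no other member. The largest connected groups there held 18, 34 and 10 pixels. For comparison, 6.29%, 5.57%, 3.24% and 9.28% of the neighbours of other pixels were members, in the order 50 µm A, 50 µm B, 25 µm and 10 µm.

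Many members lay along lines of the grid. In 50 µm section B, 18 members fell on 1 line of 23 tissue pixels with the same second coordinate, and the 3 fullest such lines held 46.4% of all members. The fullest line held 8 of 10 tissue pixels in 50 µm section A, 13 of 16 in the 25 µm section and 23 of 50 in the 10 µm section. The second coordinate alone accounted for 36.6%, 49.0%, 48.1% and 11.0% of the variance of the log2 share, and the first for 10.6%, 11.9%, 19.2% and 3.14%. The part of these lines in the transcript results was not tested. When the medians of each line were taken out of the share in both directions and pixels were ranked again, 44.2%, 34.5%, 28.8% and 58.3% of the members stayed members. At the tissue edge of 50 µm section A lay 46.5% of members against 27.4% of other pixels. In the other 3 sections the edge shares of members and others were 29.8% and 26.1%, 11.9% and 14.0%, and 21.9% and 21.0%.

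**Figure D1:**
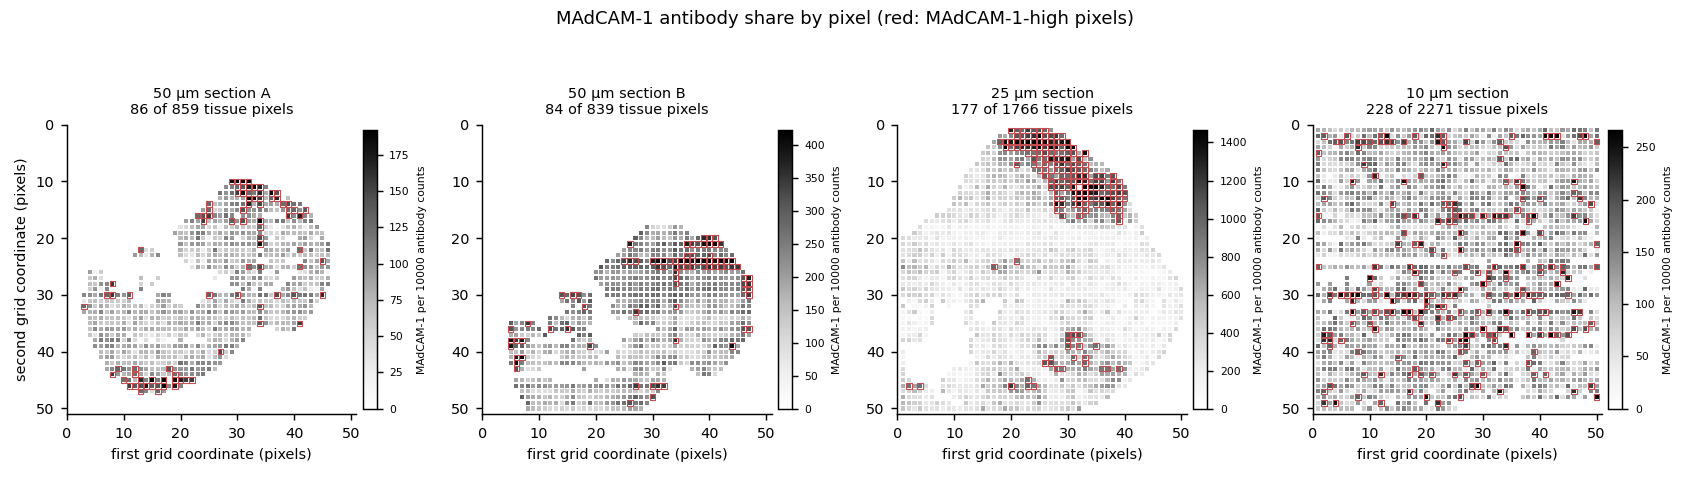
MAdCAM-1 share of the antibody counts (grey scale, per 10000, darker is higher; each panel has its own scale up to the 99th percentile) at the grid position of every tissue pixel, with the MAdCAM-1-high pixels outlined in red. The members form 1 large patch of 147 pixels in the 25 µm section, run along lines of the second coordinate in 50 µm section B, and are scattered in the 10 µm section.

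Members did not differ from other pixels in transcript depth beyond the spread between sections. Their median transcript count per pixel was 0.861 times that of the other pixels in 50 µm section A and 1.05, 1.12 and 1.05 times in 50 µm B, 25 µm and 10 µm, with a mean log2 ratio of 0.022 ± 0.164 (SD, n = 4 sections; exact two-sided sign-flip permutation p = 0.75). Antibody totals were lower in members in all 4 sections, at 0.567, 0.871, 0.999 and 0.820 times those of other pixels. These totals are the denominator of the share that chose the members, so they are given as a description with no test. The members' median MAdCAM-1 count in 50 µm section A, 22.5, was close to the 20 of the other pixels, so that the higher share there went with a lower total.

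The transcript of the antibody's own target was rare. Madcam1 had 1 count among 2630054 in members and 15 among 26215454 in other pixels. That is 0.380 CPM (95% Poisson interval 0.00963 to 2.12) and 0.572 CPM (0.320 to 0.944). By section, members and others had 0 and 6 counts in 50 µm section A, 0 and 1 in section B and 1 and 8 in the 10 µm section, and the 25 µm table listed no count of the gene. A count of 0 among the 169331 transcript counts of the 25 µm members allows up to 17.7 CPM by a floor of 3 counts, and 21.8 CPM by the 95% Poisson limit used above. The intervals cover counting error only. A difference in Madcam1 was not detectable at this depth.

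Of these genes, Itga4, Itgb1, Nr2f2 and Ltbr passed the filter on low counts, and 0 of the 4 passed the test described below (adjusted p = 0.995 for each, edgeR quasi-likelihood test). Itga4, the α4 chain, was at 14.0 CPM in members and 33.2 in others in 50 µm section A, 24.1 and 23.9 in section B, 5.91 and 37.3 at 25 µm, and 20.7 and 17.4 at 10 µm. Its log2 fold change was -0.50 (SE 0.29), with members lower in 2 sections and level or higher in the other two. Itgb1, the β1 chain that pairs with α4 outside the α4β7 integrin, had a log2 fold change of -0.17, Ltbr of -0.36 and Nr2f2, a transcription factor gene of veins and other tissues, of -0.05. Itgb7 had 3 counts in members, all in 50 µm section B, and Nkx2-3 had 2, both in the 10 µm section.

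The other antibodies in members are described without a test, since they share the antibody total with the rule. With MAdCAM-1 taken out of the total, 7 of the other 21 antibodies had a mean share above that of the other pixels in all 4 sections, and 3 had a lower one (CD102-ICAM2, CD326-Ep-CAM and NK-1.1-KLRB1). CD49d-ITGA4, which recognises the α4 integrin chain, was 1.14, 1.24, 1.23 and 1.05 times higher in members in the order 50 µm A, 50 µm B, 25 µm and 10 µm. By the mean of the 4 section percentages its top 10% of pixels shared the most with the members, 20.5%, next to 19.5% for Notch1. By section the percentage for CD49d-ITGA4 was 27.9%, 28.6%, 11.3% and 14.0% in the order just given. Unrelated top 10% sets would share about 10%, so the 25 µm and 10 µm sections lay near that level. The pixels shared were 24, 24, 20 and 32 for CD49d-ITGA4 and 25, 13, 32 and 35 for Notch1 in the same order, so the order of the 2 antibodies differs between sections. The Panendothelial cell antigen antibody, which marks endothelium, was at 1.00, 0.94, 0.48 and 1.09 times the level of other pixels. Of the members, 11.6%, 8.33%, 0.565% and 15.4% were also among its top 10%, in the order 50 µm A, 50 µm B, 25 µm and 10 µm. Over the 22 genes assigned by hand to the antibodies, 10 passed the filter and 0 passed the test between members and others, with log2 fold changes from -0.50 to 0.42. At an unadjusted p under 0.05 the number was also 0.

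To ask how the transcripts of members differ from those of the rest of their section, counts were summed over members and over other tissue pixels of each section. The 8 sums were tested with edgeR's quasi-likelihood test with the section as a block and with Benjamini-Hochberg adjustment over 10658 genes. The replicate is the section, since pixels of a section are not independent. Only 1 gene passed, and it was lower in members. This is 0.00938% of the genes tested. Without adjustment 498 genes (4.67%) had a p under 0.05, no more than that threshold passes when no gene differs. The alternative tool DESeq2 also called 1 gene, and 0 genes (0.0%) passed as higher. The same direction in all 4 sections was seen in 529 genes higher in members (4.96%) and 991 genes lower (9.3%). Member sums were shallower, with 169331 counts against 1394158 at 25 µm, and a count of 0 in members was scored as lower. These percentages therefore cannot be set against each other.

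The gene that passed was Myh7, which encodes the slow β myosin heavy chain of heart muscle. Its level was 18.3 CPM in members and 51.1 in others in 50 µm section A, 19.0 and 45.6 in section B, 59.1 and 340 at 25 µm, and 0 and 2.73 at 10 µm. Members were the lower group in every section, although the 10 µm section held only 13 Myh7 counts in all. The log2 fold change was -1.71 (SE 0.231, adjusted p = 0.000367, edgeR quasi-likelihood test). The call rested on the 25 µm section, without which the log2 fold change was -1.36 and the adjusted p 0.0528. It also turned around when the line medians of the grid were removed before ranking, to a log2 fold change of 1.23 that did not pass. With pixels ranked in that way, the 2 genes that passed were the heart genes Myh6 and Myl7, at 1.43 and 1.51 and higher in the newly chosen pixels.

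Heart muscle genes as a list lay on the same side. Of the 10 genes, 9 passed the filter, all 9 had a negative log2 fold change, 8 of them were lower in all 4 sections and 1, Myh7, passed the test. Their median log2 fold change was -0.88, against -0.0055 over all 10658 genes, and -0.59 without the 25 µm section. After removal of the line medians the median was 1.04, so the direction of this list depends on how the share is ranked. The ventricular light chain gene Myl2 had a log2 fold change of -1.43 (adjusted p = 0.0881) and the atrial light chain gene Myl4 of -0.93 (adjusted p = 0.415). Myl2 was at 11.8 and 30.2, 6.01 and 10.7, 70.9 and 237, and 0 and 2.10 CPM in members and others in the section order used above. The summed list stood at 478 and 854 CPM, 602 and 691, 431 and 1569, and 9.39 and 19.9, so the 10 µm section contained hardly any heart RNA to compare. There members had a count for only 2 of the 10 genes, and a count of 0 was scored as lower. That section thus adds little to the agreement in direction. In pixel sums, fewer cells of a type and less RNA per cell cannot be told apart.

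Genes higher in members in all 4 sections with the smallest p-values did not pass the test. Gli3, the main repressor among the transcription factors of Sonic hedgehog signalling and a patterning gene of the dorsal telencephalon and limb, came closest. It was at 227 CPM in members and 157 in others in 50 µm section A, 262 and 198 in section B, 343 and 155 at 25 µm and 239 and 183 at 10 µm (log2 fold change 0.57, SE 0.115, adjusted p = 0.0881). Otx1, a homeobox gene of the forebrain and midbrain, was at 38.7 and 18.2, 77.2 and 31.8, 65.0 and 14.3, and 43.2 and 37.8 CPM. Its log2 fold change was 1.07 (SE 0.22, adjusted p = 0.0928). Both genes were higher in members in 4 of 4 sections. Without the 10 µm section, where the separation was smallest, Otx1 passed with a log2 fold change of 1.35 (adjusted p = 0.0221). With line medians removed it was at -0.06.

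The other genes named on that side were Lix1, Naa15, Rad18, Nucks1, Sdad1, Flrt3, Lrrcc1, Rif1, BC085271 and Cenpk. Their log2 fold changes ran from 0.31 for Nucks1 to 0.78 for Rad18, with adjusted p-values from 0.20 for Lix1 to 0.457. Rad18, which encodes a ubiquitin ligase of post-replication repair, was at 54.8 and 37.4, 56.1 and 34.5, 47.2 and 32.3, and 60.1 and 25.6 CPM in members and others. Rif1 acts in replication timing and break repair, Cenpk is a kinetochore gene, Naa15 is a subunit of an N-terminal acetyltransferase, and Flrt3 is a membrane protein of cell adhesion and axon guidance. Of the S and G2/M phase list, 9 of 10 tested genes had a positive log2 fold change, 0 passed and the median was 0.17. Its summed level was 1.26 times that of other pixels in 50 µm section A (95% counting interval 1.22 to 1.3), 1.03 (0.991 to 1.06) in section B, 1.16 (1.07 to 1.27) at 25 µm and 1.02 (0.967 to 1.07) at 10 µm.

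On the lower side, after Myh7, the named genes were Myl2, Sulf1, Col2a1, Slit2, Ntn1, Myl4, Dusp9, Krt18, Nnat, Ptch1 and Zbtb20, none of which passed. Sulf1, an extracellular sulfatase that trims heparan sulfate, was at 48.4 CPM in members and 87.2 in others in 50 µm section A, 72.2 and 126 in section B, 17.7 and 76.0 at 25 µm and 77.0 and 105 at 10 µm (log2 fold change -0.77, adjusted p = 0.0881). Col2a1, the collagen of cartilage and notochord, had a log2 fold change of -0.56 (adjusted p = 0.114). The guidance cue genes Slit2 and Ntn1, both expressed in the floor plate, had -0.60 and -1.06. Ptch1, the Sonic hedgehog receptor and a target of that pathway, was at 52.6 and 88.3, 109 and 153, 23.6 and 138, and 52.6 and 65.2 CPM (log2 fold change -0.66, adjusted p = 0.42). The keratin gene Krt18 had -1.22, the phosphatase gene Dusp9 -1.14, the imprinted gene Nnat -0.31 and the transcription factor gene Zbtb20 -0.45. Without the 10 µm section Col2a1 and Myl2 passed, at -0.70 and -1.41, and without 50 µm section B Myl2 passed at -1.59 beside Actc1, Ttn, Nefl and Sncg.

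**Figure D2:**
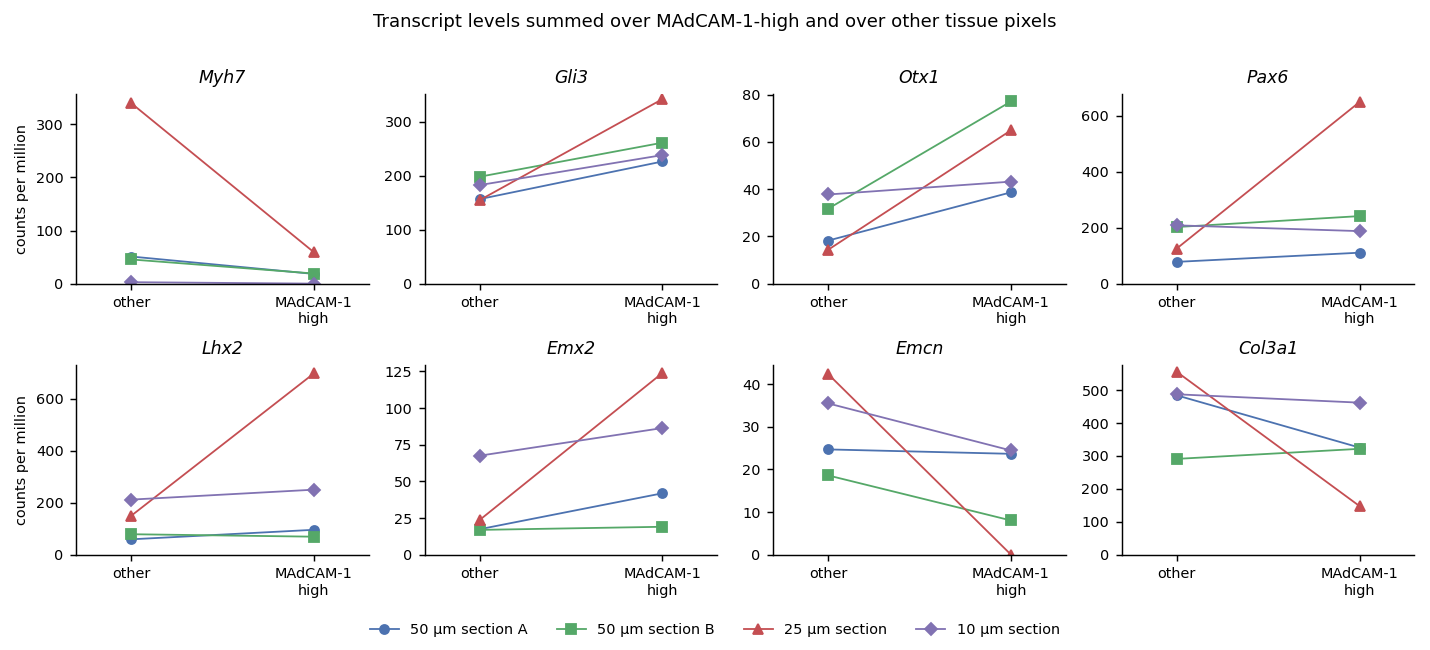
CPM summed over other tissue pixels and over MAdCAM-1-high pixels for 8 genes, with 1 line per section. Myh7 is lower and Gli3 and Otx1 are higher in members in all 4 sections, while Pax6, Lhx2 and Emx2 lie far higher and Emcn and Col3a1 lower in members of the 25 µm section.

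Of the 8 genes of the forebrain list 7 passed the filter and 0 passed the test, with a median log2 fold change of 0.52 (0.20 without the 25 µm section and -0.13 with line medians removed). Summed over the list, members stood at 370 CPM and others at 296 in 50 µm section A, 587 and 433 in section B, 1435 and 462 at 25 µm, and 710 and 666 at 10 µm. The ratio was 1.25 (95% counting interval 1.11 to 1.40), 1.36 (1.24 to 1.48), 3.11 (2.67 to 3.61) and 1.07 (0.956 to 1.19). Members were thus higher in all 4 sections by the summed list, with the 10 µm interval spanning 1.

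In the 25 µm section genes of that list lay on both sides. These are values of 1 section, so no test across sections applies to them. Dmrta2, which acts in formation of the cortical hem, had 35 counts in the 177 members and 46 in the 1589 other pixels, a ratio of CPM of 6.26 (3.92 to 9.94). Emx2, a homeobox gene of the dorsal telencephalon, had a ratio of 5.24 (2.88 to 9.33). Lhx2, a selector gene of cortex and eye field, was at 697 CPM in members and 149 in others. Six3, which marks more anterior and ventral forebrain and the eye field, went the other way, with 2 counts in members and 121 in others, and Nkx2-1, of the ventral forebrain, had 1 and 25. Otx2, expressed in forebrain and midbrain, had a ratio of 1.22 whose interval spanned 1 (0.605 to 2.25).

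Of the neural progenitor list, Pax6, a regulator of cortical and eye progenitors, was at 650 CPM in members and 126 in others at 25 µm. Sox2 had a ratio of 1.96 (1.44 to 2.62), Sox3 of 3.01 (1.68 to 5.17), Msi1 of 1.98 (1.45 to 2.66) and Nes of 1.63 (1.31 to 2.00) at 25 µm. Hes5, a Notch target, and Fabp7, of radial glia, were at 118 and 119 CPM and at 207 and 219 CPM in members and others. Over the 4 sections, 8 of the 9 genes of this list had a positive log2 fold change, 0 passed and the median was 0.14.

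For Pax6 and Lhx2 the fitted log2 fold changes over the 4 sections were 0.66 and 0.73 (adjusted p = 0.995 for each). Of 10 tested neuron genes 9 had a negative log2 fold change, 0 passed and the median was -0.21. The summed level of the list was 0.582 times that of other pixels in 50 µm section A (0.555 to 0.610), 1.12 in section B (1.08 to 1.16), 0.938 at 25 µm (0.827 to 1.06) and 1.06 at 10 µm (0.972 to 1.16). The midbrain and hindbrain list was lower in members in both 50 µm sections, at 0.659 (0.517 to 0.830) and 0.617 (0.483 to 0.778), and had too few counts at 25 and 10 µm for a comparison, since those sections held 4 and 2 counts in members. The eye and pigment list stood apart in the 10 µm section, where Pmel, a melanosome gene of the retinal pigment layer, had 91 counts in members and 499 in others. There the list was 1.57 times higher in members (1.31 to 1.88), while its ratios in 50 µm A, 50 µm B and 25 µm were 0.780, 0.394 and 0.484.

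**Figure D3:**
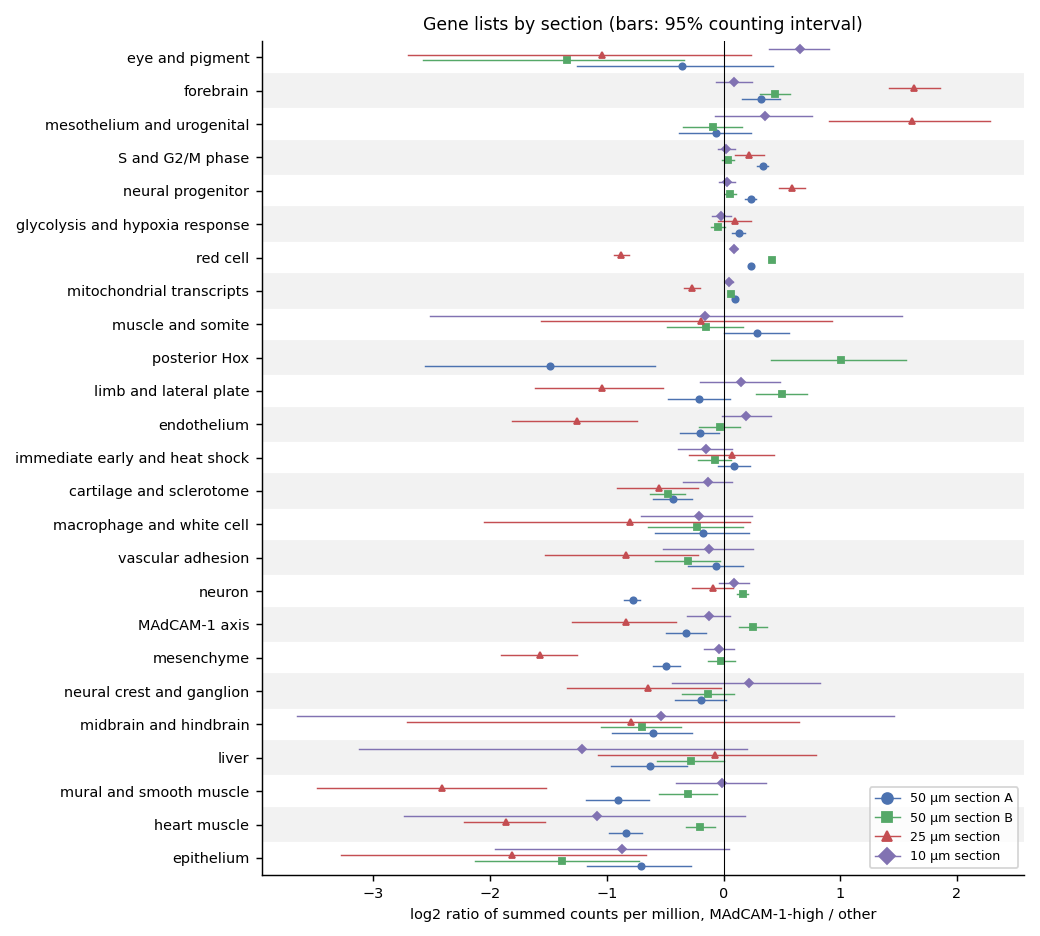
Log2 ratio of the summed CPM of each gene list in MAdCAM-1-high against other tissue pixels, 1 marker per section with its 95% counting interval. Forebrain lies right of 0 and heart muscle and epithelium left of 0 in all 4 sections, and the 25 µm section has the extreme value in many lists. Other lists also keep to 1 side, among them neural progenitor and S and G2/M phase on the right. On the left these include mural and smooth muscle, vascular adhesion, macrophage and white cell, and liver.

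Endothelial transcripts showed no called difference. Of 16 endothelium genes 15 passed the filter, 0 passed the test, 5 had a positive and 10 a negative log2 fold change, and the median was -0.09. Their summed level was 350 CPM in members and 404 in others in 50 µm section A, 286 and 292 in section B, 189 and 450 at 25 µm and 400 and 349 at 10 µm. The ratio was 0.867 (0.772 to 0.971), 0.977 (0.862 to 1.1), 0.420 (0.284 to 0.598) and 1.15 (0.989 to 1.32). At 25 µm, Emcn, the endomucin gene of venous and capillary endothelium, had 0 counts in members and 59 in others, and Flt1, a VEGF receptor gene, had 2 and 68. Cdh5, the endothelial cadherin gene, had 1 and 43 there and Kdr, the main VEGF receptor gene, 5 and 92. Of the vascular adhesion list 4 of 8 genes passed the filter and 0 the test, with a median of -0.19. Red cell transcripts were higher in members by 1.17, 1.33 and 1.07 times in 50 µm A, 50 µm B and 10 µm and lower at 25 µm, at 0.544 times. Without the 25 µm section Hba-a1, an alpha globin gene, and Hbb-y, an embryonic beta-like globin gene, passed the test with log2 fold changes of 0.34 and 0.27.

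Mesenchyme and epithelium genes lay on the lower side. All 10 tested mesenchyme genes had a negative log2 fold change, 0 passed and the median was -0.34 (-0.15 without the 25 µm section). In that section Col1a1, Col1a2 and Col3a1, the fibrillar collagen genes, were at 29.5 and 159 CPM, 124 and 426, and 148 and 556. The summed mesenchyme ratios were 0.712, 0.987, 0.336 and 0.973 in the section order, so sections 50 µm B and 10 µm were near 1. The epithelium list was lower in members in all 4 sections, at 0.612 (0.444 to 0.823), 0.382 (0.228 to 0.604), 0.284 (0.103 to 0.631) and 0.546 (0.257 to 1.03). Only 2 of its 9 genes passed the filter, and 0 passed the test. Mural and smooth muscle genes had ratios of 0.534, 0.811, 0.188 and 0.992 and a median log2 fold change of -0.63 over 4 tested genes. Macrophage and white cell genes had ratios from 0.573 to 0.886.

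Gene levels were also followed over 10 bins of equal size by MAdCAM-1 share, of which the top bin holds the members. In the 25 µm section the forebrain list stood at 295 CPM in the lowest bin, 460 in bin 8, 771 in bin 9 and 1435 in the top bin. Endothelium there was at 1037 CPM in the lowest bin and 189 in the top bin, and heart muscle at 4433 and 431. In 50 µm section B forebrain was at 226 CPM in the lowest bin and 587 in the top bin, and at 594 already in bin 8. Section A had it between 273 and 337 CPM in the lower 9 bins and at 370 in the top one. The 10 µm section varied between 618 and 717 CPM with the top bin at 710. The widest range over the bins belonged to the 25 µm section.

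**Figure D4:**
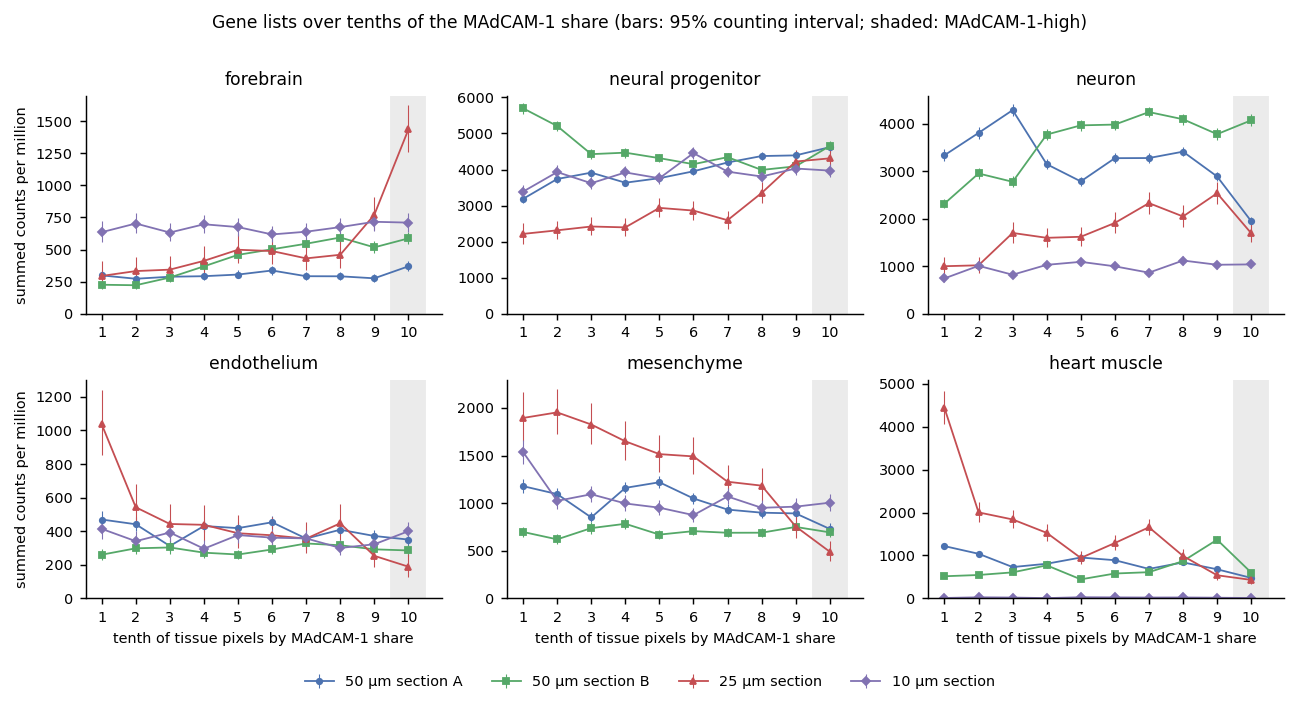
Summed CPM of 6 gene lists over 10 equal bins of the tissue pixels ordered by MAdCAM-1 share, 1 line per section, with 95% Poisson intervals; the shaded top bin holds the members. In the 25 µm section forebrain transcripts increase from 771 CPM in bin 9 to 1435 in the top bin and heart muscle transcripts decrease from 4433 to 431 across the bins.

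The 4 sections had little in common across all genes. The Spearman correlation of the log2 differences between members and others, with 5 CPM added to both levels, over 10658 genes was 0.145 between 50 µm section A and the 25 µm section and between -0.026 and 0.054 for the other 5 pairs. These are descriptions across genes, which are not independent, and low-count genes add noise to them. Whether the change differed between the 50 µm sections and the narrower pixels was tested with an interaction term in the edgeR fit. It called 0 of 10658 genes (0.0%) in edgeR, and 0 passed in DESeq2. Without adjustment it gave 438 genes (4.11%) with a p under 0.05, no more than that threshold passes when no gene differs. Without the 25 µm section it called 20 genes and without the 10 µm section 36. Pixel width, section and region cannot be told apart in this design.

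To set the members beside an endothelial antibody, pixels in the top 10% for MAdCAM-1 only were compared with pixels in the top 10% for the Panendothelial antigen only. The pairs were 76 and 76 pixels in 50 µm section A, 77 and 77 in section B, 176 and 176 at 25 µm, and 193 and 193 at 10 µm. Of 8461 genes tested, 252 passed (2.98%), of which 62 were higher (0.733%) and 190 lower (2.25%) in MAdCAM-1-high pixels. Without adjustment 1141 genes (13.5%) had a p under 0.05, and the direction was the same in all 4 sections in 1084 genes higher (12.8%) and 810 lower (9.57%). Of 12 endothelium genes tested, all 12 had a negative log2 fold change and 8 passed the test: Pecam1, Cdh5, Kdr, Flt1, Tie1, Emcn, Egfl7 and Cd34. The list's median log2 fold change was -1.40, against 0.022 over all genes, and 11 of the 12 were lower in all 4 sections. The count of endothelium genes called was 4 without 50 µm section A and 8 or 9 without any 1 of the other sections.

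The reference pixels here were chosen by an endothelial antibody, so a lower level in members is relative to a group picked for endothelium. Emcn gave the plainest case. It was at 19.1 CPM in MAdCAM-1-high and 77.4 in Panendothelial-high pixels in 50 µm section A, 7.60 and 30.1 in section B, 0 and 114 at 25 µm, and 17.2 and 131 at 10 µm. It was lower in 4 of 4 sections, and the log2 fold change was -2.53 (SE 0.343, adjusted p = 0.000109, edgeR quasi-likelihood test). In pixels high for neither antibody Emcn was at 20.7, 17.6, 35.4 and 28.0 CPM in the order 50 µm A, 50 µm B, 25 µm and 10 µm. All members, with pixels high for both included, were at 23.6, 8.02, 0 and 24.4. Against Panendothelial-high pixels all 4 tested mural and smooth muscle genes were lower too. Tagln, an actin-binding protein gene of smooth muscle, was at -2.42 (adjusted p = 0.000465, same test). The TGF-β receptor gene Tgfbr2 fell by 2.25 on the log2 scale (adjusted p = 0.00642), though at 25 µm its values were 29.7 and 32.6 CPM, and it did not pass without 50 µm section A (adjusted p = 0.177). The heart gene Myl2 fell by 2.61 (adjusted p = 0.000226), with 71.2 and 848 CPM at 25 µm.

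Blood and connective tissue genes moved the same way. Of the 9 red cell genes, all 9 had a negative log2 fold change and 7 passed the test, with a list median of -1.22. The embryonic globin gene Hba-x was at 5268 and 13850 CPM in 50 µm section A, 3331 and 7316 in section B, 2266 and 8215 at 25 µm, and 3336 and 10038 at 10 µm. Of 9 tested mesenchyme genes 6 passed as lower, Col1a1, Col1a2, Col3a1, Twist1, Pdgfra and Lum. Of the axis genes, Itga4 fell by 1.70 (adjusted p = 0.0055) and Itgb1 by 0.63 (adjusted p = 0.017). Itga4 was at 9.57 and 35.9 CPM, 25.0 and 50.6, 5.93 and 57.1, and 10.8 and 52.4. In pixels high for neither antibody Itga4 was at 33.0, 21.7, 35.4 and 14.7 CPM in the same section order. All members were at 14.0, 24.1, 5.91 and 20.7, below that level in 50 µm A and 25 µm and above it in 50 µm B and 10 µm. These lists were compared with the same Panendothelial-high pixels throughout, and the direction they share is not independent between lists. Nor does it hold for red cell genes against all other tissue pixels. There the list was higher in members in 50 µm A, 50 µm B and 10 µm, at 1.17, 1.33 and 1.07 times, and lower at 25 µm, at 0.544 times.

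On the higher side 4 genes were named. Ptprz1, a receptor phosphatase of radial glia, was at 135 and 66.3 CPM in 50 µm section A, 148 and 67.0 in section B, 273 and 81.6 at 25 µm and 373 and 55.4 at 10 µm. It rose by 1.53 on the log2 scale (SE 0.218, adjusted p = 0.00020). Npas3, a transcription factor gene of the developing brain, rose by 1.24 (adjusted p = 0.0041), Kif21a, a kinesin gene, by 1.15 (adjusted p = 0.0013) and Fut9, a fucosyltransferase gene that makes the Lewis X sugar of neural progenitors, by 1.3 (adjusted p = 0.0355). Npas3 was short of the threshold without 50 µm section A (adjusted p = 0.0534). Fut9 did not pass when any 1 of 3 sections, 50 µm A, 50 µm B or 10 µm, was left out. Of the neural progenitor list, all 9 genes had positive log2 fold changes and 2, Hes5 and Msi1, passed. Of the neuron list Stmn2 and Elavl3 passed. Of the forebrain list Otx1 passed, close to the threshold (log2 fold change 1.15, adjusted p = 0.047, edgeR quasi-likelihood test). At 25 µm Otx1 had only 11 counts in MAdCAM-1-high and 0 in Panendothelial-high pixels.

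Pixels high for neither antibody were set beside both classes, without a test. The endothelium list stood at 350, 286, 189 and 400 CPM in all MAdCAM-1-high pixels, at 863, 561, 1192 and 959 in Panendothelial-high pixels and at 367, 268, 378 and 302 in pixels high for neither, in the order 50 µm A, 50 µm B, 25 µm and 10 µm. Members were above the level of pixels high for neither in 50 µm B and 10 µm and below it in 50 µm A and 25 µm, and in each section they were far from the Panendothelial-high level. Hba-x stood at 5501, 3315, 2268 and 4022 CPM in members, 13123, 6919, 8181 and 9810 in Panendothelial-high pixels and 3936, 2507, 3929 and 3539 in the rest. Ptprz1 was at 131, 148, 272 and 327 CPM in members and at 123, 167, 89.7 and 262 in pixels high for neither.

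**Figure D5:**
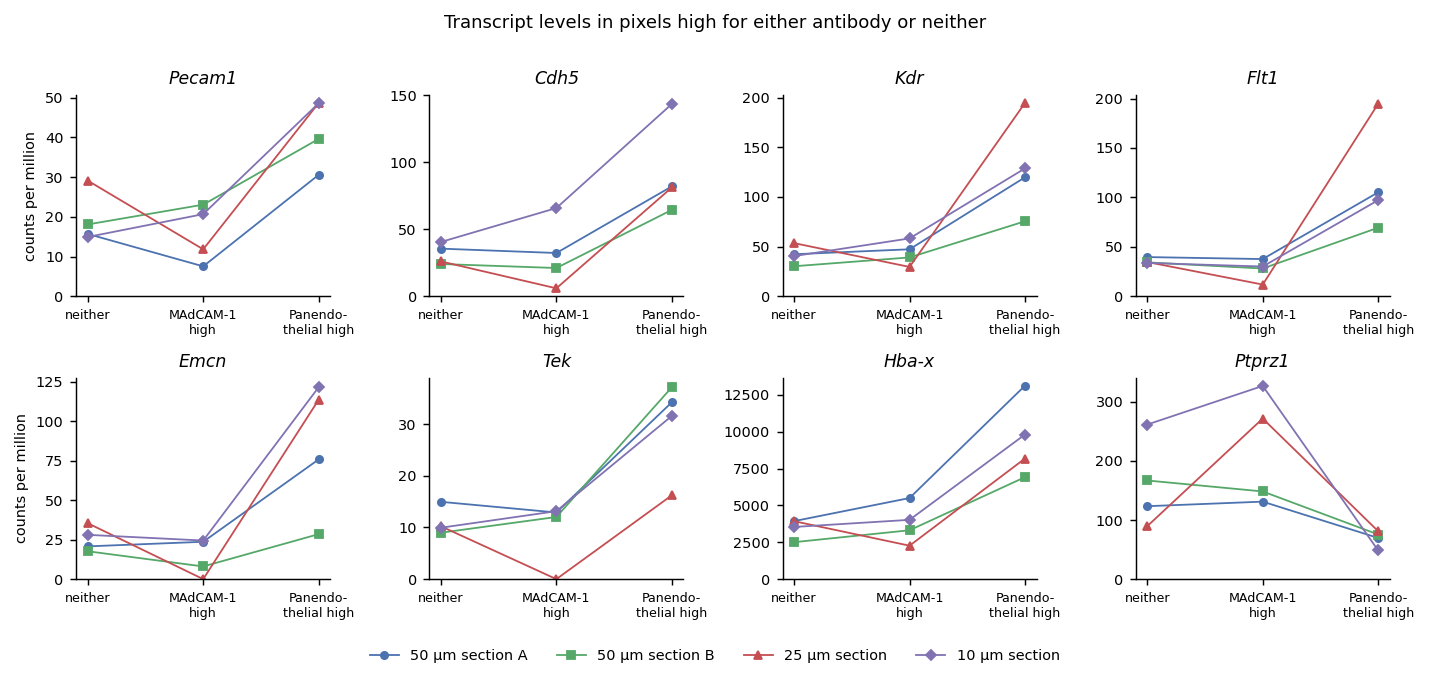
CPM of 8 genes in pixels high for neither antibody, in MAdCAM-1-high pixels and in Panendothelial-high pixels, 1 line per section; pixels high for both enter both classes. For Cdh5, Kdr, Flt1 and Emcn the Panendothelial-high pixels lie highest in all 4 sections, and at 25 µm the MAdCAM-1-high pixels lie lowest.

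CD49d-ITGA4, first by that mean percentage of shared pixels, was the other antibody compared. Pixels high for only 1 of the 2 antibodies were compared (60 to 196 per class and section), and 16 of 8093 genes passed (0.198%), of which 2 were higher (0.0247%) and 14 lower (0.173%) in MAdCAM-1-high pixels. Without adjustment 515 genes (6.36%) had a p under 0.05, and 576 genes higher (7.12%) and 623 lower (7.7%) had the same direction in all 4 sections. Of 7 heart muscle genes tested, all 7 had a negative log2 fold change and 5 passed the test. The full heart list stood at 1359, 1554, 2928 and 18.0 CPM in these CD49d-high pixels, in the order 50 µm A, 50 µm B, 25 µm and 10 µm. In the main comparison other tissue pixels stood at 854, 691, 1569 and 19.9 and members at 478, 602, 431 and 9.39. The reference was thus itself above other tissue pixels except at 10 µm. Myh7 was at 14.8 CPM in MAdCAM-1-high and 106 in CD49d-high pixels in 50 µm section A, 19.3 and 92.1 in section B, 52.9 and 646 at 25 µm, and 0 and 5.15 at 10 µm. It fell by 2.86 on the log2 scale (SE 0.296, adjusted p = 2.15e-05) and Myl4 by 2.56 (adjusted p = 3.73e-05), and both passed without any 1 section. The light neurofilament gene Nefl fell by 1.65 (adjusted p = 0.000864), but not without 50 µm section A (adjusted p = 0.324), and the smooth muscle actin gene Acta2 by 1.65 (adjusted p = 0.0186), which did not pass when 50 µm A, 50 µm B or the 25 µm section was left out. The 2 genes that passed as higher were the histone H2A genes Hist1h2ap and Hist1h2ao, with log2 fold changes of 0.76 and 0.67. These are near-identical copies whose reads may be split between them, and neither passed without 50 µm section A or without section B, and Hist1h2ao also not without the 25 µm section. The number of genes called was 5 without 50 µm section A, 4 without section B and 56 without the 10 µm section. Of the 7 endothelium genes tested 0 passed, with a median of -0.19.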

How the data were processed

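The data were transcript and antibody tables of 4 E10 sections with a row per pixel. The values are raw counts per gene or antibody tag as the authors deposited them; per the labels' protocols the libraries were made with Nextera XT and read on a HiSeq 4000, and the submitters' processing notes name CASAVA 1.8.2 and the build GRCh38, although the samples are mouse. The aligner and counter are not given in the sources used here, so strand use is unknown.

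Members and gene lists were chosen with earlier results of these data known. Counts were summed per section and pixel class and tested with edgeR 4.0.16 (R 4.3.3; limma 3.58.1), using TMM factors, filterByExpr, a robust quasi-likelihood fit, the section as a block and Benjamini-Hochberg adjustment at 0.05. DESeq2 1.42.0 was an alternative. Residual degrees of freedom were 3 in the comparisons of pixel classes over all 4 sections. They were fewer in the width interaction and with a section left out. Intervals are 95% Poisson or conditional binomial and cover counting error only. The labels do not say which sections come from separate embryos, so p-values may measure technical spread. The counts of 50 µm sections A and B differed beyond sampling noise (chi-square per degree of freedom 38.1 over 12260 genes). Every comparison is within sections, which gives its pairing.

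Named genes were up to 12 per direction of at least 20 CPM with the same sign in 4 sections, called ones first by size, then those of smallest p; up to 4 per direction in the other comparisons; and all called genes of the lists. Symbols of predicted genes were left out. The scripts were tested on simulated data. Results for some list genes are not reported here.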

Additional observations from a re-analysis of the deposited data

Results flagged for a closer look

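Of 37 named genes, 25 gene lists and 5 depth measures, 2 lists had 1 section that stood apart from the other three. Such a gap is seen by chance in about 1 in 20 groups. In both cases it was the 25 µm section, the one with the fewest transcript counts. The macrophage and white cell list had a log2 ratio of members to other pixels of -0.74 there, computed with 5 CPM added to both levels. The plain ratio was 0.573, from 8 counts in members and 115 in others, against plain ratios of 0.886, 0.853 and 0.863 in 50 µm A, 50 µm B and 10 µm. The mitochondrial transcript list had a log2 ratio of -0.27 at 25 µm in the same computation, with 1885 counts in members and 18726 in others, against plain ratios of 1.07, 1.05 and 1.03 in the other sections.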

How the results depend on the processing

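Against other pixels, where 1 gene was called, the count was 16 with no filter on low counts, 0 with no replicate block, 6 for the top 5% of pixels, 2 for ranking by raw antibody count, 2 after row and column medians were removed, 3 for the share over a pixel and its 4 neighbours (chosen after seeing the data), 2 without the pixels of lowest antibody total, 5 against the pixels of lower share, 0 after thinning to 500 counts per pixel, and 1 to 7 with 1 section left out. Against Panendothelial-high pixels the 252 calls became 109 in DESeq2, 0 with no replicate block, 84 and 379 for the top 5% and 20%, 7 by raw count, 105 after row and column removal, 38 after thinning, and 102 to 251 with 1 section left out. Against CD49d-high pixels the 16 calls became 52 with no filter, 10 in DESeq2, 0 with no replicate block, 5 for the top 20%, 0 by raw count, 0 after row and column removal, 9 by neighbours, 0 after thinning and 4 to 56 with 1 section left out. The width interaction called 7 genes with no filter and 0 to 36 with 1 section left out. Without a filter the median of all genes against other pixels was -0.185.

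Myh7 was called in 12 of 18 alternatives. After row and column medians were removed, the log2 fold change turned to -0.055 for Otx1, -0.19 for Lix1, -0.28 for Cenpk, 1.23 for Myh7, 0.56 for Myl2, 0.94 for Myl4, 0.037 for Krt18, 0.18 for Itga4, 0.041 for Itgb1, 0.14 for Nr2f2 and 0.28 for Ltbr. Ranking by raw count gave -0.000503 for Rad18, -0.051 for Flrt3, -0.078 for Lrrcc1, 0.14 for Ntn1, 0.028 for Krt18, 0.013 for Nnat, 0.089 for Zbtb20, 0.0021 for Ltbr and, against CD49d-high pixels, 0.71 for Acta2. Nr2f2 was at 0.041 for the top 20%, 0.0014 against the pixels of lower share, and from -0.29 to 0.066 with 1 section left out. The cause was not tested. The named genes' values under the alternatives were tallied together with the number of antibody target genes called. In that tally 607 kept direction and side of the threshold (or the same number), 76 lost a call, 21 gained one and 23 reversed. The mean log2 ratio of transcript counts per pixel was -0.065 for the top 5%, -0.017 at a tissue limit of 0.2, and -0.024 to 0.10 with 1 section left out. For genes per pixel it was 0.027 for the top 20%, 0.026 without the pixels of lowest antibody total, 0.606 by raw count, and -0.047 to 0.073 with 1 section left out. For antibody counts it was 1.22 by raw count and -0.435 to -0.162 with 1 section left out. Madcam1 in members was at 0 CPM after row and column removal and at 0 to 0.613 CPM with 1 section left out.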
